A study of Mus musculus with 6 samples.

Results

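The keratin genes of fetal thymic stroma were examined in WT and Jmjd6-/- tissue with and without RANKL. All rows of the deposited table whose gene name is Krt followed by digits and an optional letter were taken, and the keratin-associated protein genes (Krtap) and Krtcap were left out. This gave 50 entries with 52 keratin symbols among 22513 entries of the table. One entry joins Krt81, Krt83 and Krt85 with the transcript 5430421N21Rik and was kept as 1 unit. RNA came from thymic lobes of C57BL/6 embryos, taken at E15.5 by the study's methods. The lobes were cultured as fetal thymus organ culture with 2'-deoxyguanosine (2-DG) for 4 days. This nucleoside is used to deplete haematopoietic cells and leave the stroma. The lobes were then left unstimulated or given RANKL at 1 µg per ml for 4 days. RANKL is the ligand of the receptor RANK, which drives the maturation of medullary thymic epithelial cells (mTECs) and their expression of Aire. The 4 groups were unstimulated WT stroma (1 library), unstimulated Jmjd6-/- stroma (1 library), WT stroma with RANKL (2 libraries) and Jmjd6-/- stroma with RANKL (2 libraries), and 2-DG was common to all of them. The Jmjd6-/- embryos lack this lysyl hydroxylase in every cell, so a difference between genotypes cannot be assigned to one stromal cell type. The 2 libraries of a stimulated group are named technical duplicates in the sample labels and samples in the study's methods, so the p-values below measure the spread between libraries, which may be technical.

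Keratins are the intermediate filament proteins of epithelial cells. A type I (acidic) keratin pairs with a type II (basic) keratin, and the pairs in use change with the kind of epithelium and its stage. Krt8 and Krt18 form the pair of simple, single-layered epithelia, Krt5 and Krt14 that of basal cells of stratified epithelia, and Krt1 and Krt10 that of the suprabasal epidermis. Krt6a, Krt6b, Krt16 and Krt17 are switched on in wounded or stressed epidermis, and a separate set builds the hair shaft and its sheath. In the thymus, Krt8 and Krt18 are known for the cortical epithelium (cTECs) and Krt5 and Krt14 for the medulla. By these uses the entries were split into 5 simple-epithelial, 3 basal, 4 activated, 13 suprabasal, 13 hair cortex and cuticle, 9 inner root sheath and companion layer, and 3 unclassified keratins.

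The type I genes lie together on mouse chromosome 11 and the type II genes on chromosome 15, with 27 and 23 entries in mm10. Krt18, a type I gene, is the exception and lies beside Krt8 on chromosome 15, so that 28 entries are type I and 22 type II. The start regions of 6 keratins that changed with RANKL are shown. Others that rose, among them Krt9, Krt14 and Krt84, are not shown. Krt79, Krt77, Krt76, Krt71 and Krt20 were low without RANKL and rose with it, and Krt72, which lies close to Krt71, was the keratin that fell. Each sequence runs from 250 bases before to 50 bases after the start site of the gene in the direction of transcription (RefSeq, GRCm38.p6). Capitals mark 3 motifs searched on both strands, the TATA box (TATAAA), the AP-1 site (TGANTCA) and the κB site of NF-κB by its usual consensus, open at the 5 bases in the middle.
Krt79, chr15:101940275-101940574, minus strand: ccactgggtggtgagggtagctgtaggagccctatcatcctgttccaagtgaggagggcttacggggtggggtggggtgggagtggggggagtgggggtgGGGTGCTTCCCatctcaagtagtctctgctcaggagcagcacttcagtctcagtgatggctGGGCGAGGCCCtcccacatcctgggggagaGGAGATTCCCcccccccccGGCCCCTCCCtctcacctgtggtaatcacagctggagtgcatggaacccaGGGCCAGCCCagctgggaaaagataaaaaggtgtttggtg
Krt77, chr15:101869656-101869955, minus strand: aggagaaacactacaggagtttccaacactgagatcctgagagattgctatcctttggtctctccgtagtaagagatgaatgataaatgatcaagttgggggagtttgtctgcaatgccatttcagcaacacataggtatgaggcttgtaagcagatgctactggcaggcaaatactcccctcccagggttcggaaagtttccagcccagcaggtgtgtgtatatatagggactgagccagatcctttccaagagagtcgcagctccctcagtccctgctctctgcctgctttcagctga
Krt76, chr15:101892871-101893170, minus strand: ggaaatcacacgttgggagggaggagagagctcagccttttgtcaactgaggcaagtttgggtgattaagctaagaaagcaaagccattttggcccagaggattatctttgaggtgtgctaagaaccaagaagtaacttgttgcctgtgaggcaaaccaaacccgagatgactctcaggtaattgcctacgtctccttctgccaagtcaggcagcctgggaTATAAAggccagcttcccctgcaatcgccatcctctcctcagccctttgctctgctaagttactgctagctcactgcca
Krt71, chr15:101743048-101743347, minus strand: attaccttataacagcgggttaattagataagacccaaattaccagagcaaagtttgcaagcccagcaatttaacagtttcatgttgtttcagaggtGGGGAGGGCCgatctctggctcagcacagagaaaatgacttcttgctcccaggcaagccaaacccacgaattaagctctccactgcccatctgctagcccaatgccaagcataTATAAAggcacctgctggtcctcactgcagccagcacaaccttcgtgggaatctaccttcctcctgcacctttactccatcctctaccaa
Krt72, chr15:101786471-101786770, minus strand: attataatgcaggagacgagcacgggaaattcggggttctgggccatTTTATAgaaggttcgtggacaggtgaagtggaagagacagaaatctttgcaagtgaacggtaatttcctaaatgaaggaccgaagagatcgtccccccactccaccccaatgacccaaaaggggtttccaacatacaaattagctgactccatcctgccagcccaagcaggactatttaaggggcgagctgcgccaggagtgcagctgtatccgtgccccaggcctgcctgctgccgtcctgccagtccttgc
Krt20, chr11:99438104-99438403, minus strand: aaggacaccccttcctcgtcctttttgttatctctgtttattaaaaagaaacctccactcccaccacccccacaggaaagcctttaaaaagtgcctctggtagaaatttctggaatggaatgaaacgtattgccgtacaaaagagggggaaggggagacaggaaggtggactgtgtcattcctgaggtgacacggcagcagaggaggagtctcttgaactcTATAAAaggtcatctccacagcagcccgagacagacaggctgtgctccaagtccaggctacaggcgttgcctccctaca

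The TATA box of Krt20 and that of Krt76 began at position -29 from the start site, and that of Krt71 at -40. In Krt72 the letters lay at -203 on the other strand, and the Krt77 and Krt79 windows did not hold TATAAA. Variants of these letters were not searched. TATAAA was in 19 of 36 keratin start regions, for 35 of the 52 symbols, against 13.6% of 32851 start regions of all genes. The κB letters were in 18 of the 36, against 50.8% of all start regions, and those of the AP-1 site in 2 of 36 against 7.81%. Krt79 held 7 κB matches, some of them overlapping. The motifs were searched independently and can overlap one another, and a match is a description of the letters, not of binding.

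The authors deposited FPKM, fragments normalised to exon length and to the depth of the library, so levels of different keratins can be set side by side. Depth, estimated from the steps between the lowest FPKM values, ran from 15500000 to 31400000 fragments per library. The genotype labels held in every library, with Jmjd6 at 25.9 to 32.5 FPKM in WT and 1.32 to 1.96 FPKM in Jmjd6-/- stroma. Aire was at 0.142 and 0.473 FPKM without RANKL and at 67.1 to 79.7 FPKM with it. The epithelial markers Epcam (156 to 209 FPKM) and Cdh1 (123 to 162 FPKM) were present throughout. In contrast, 6 T cell genes summed to 0.399 to 2.07 FPKM, with Cd3e and Rag2 at or near 0. Macrophage transcripts remained in every library, with Lyz2 at 285 to 346 FPKM and Cd68 at 25.2 to 40.4 FPKM. These are bulk samples, in which fewer cells of a type and less RNA per cell cannot be told apart.

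Most of the keratin message of this stroma came from the simple-epithelial Krt18 and Krt8, the basal Krt5 and the activated Krt17. Krt18 made up 33.9 to 44.1% of the summed keratin FPKM of a library, Krt8 25.3 to 31.5%, Krt5 17.1 to 21.2% and Krt17 7.25 to 15.4%. These were the 4 entries with a mean above 100 FPKM. Keratins together took 1.15 to 1.78% of all FPKM. Type I and type II sums were close to balance in each library, type I holding 50.4 to 53.1%. Of the 50 entries, 37 had a mean of at least 0.1 FPKM and were tested, and 21 had a mean of at least 1 FPKM. The 13 that were not tested reached at most 0.287 FPKM, or 8.2 fragments, in any library, and Krt34, Krt39 and Krt40 were listed at 0 in all 6.

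**Figure D1:**
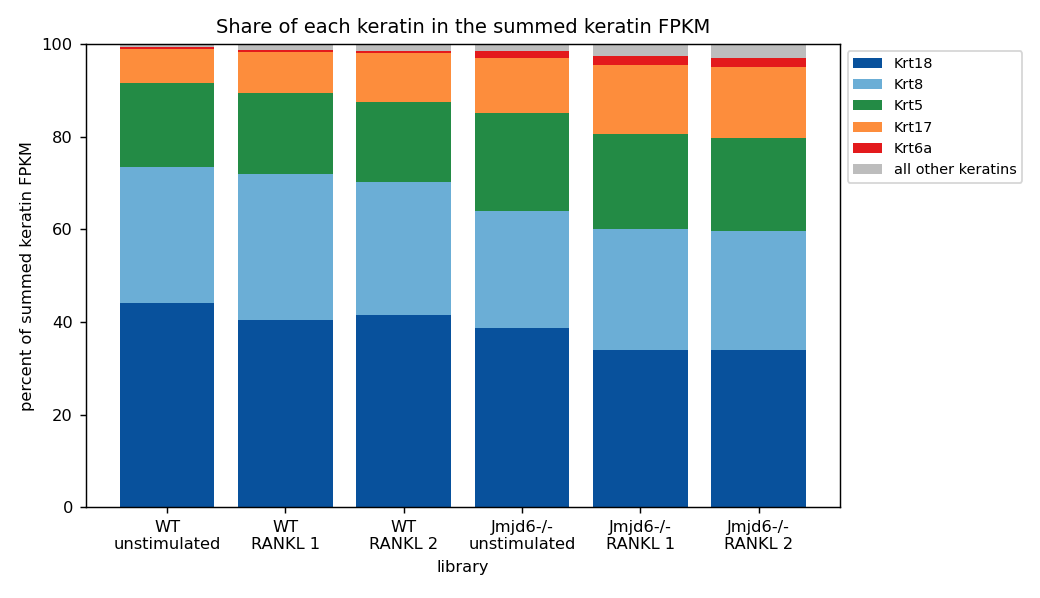
Share of Krt18, Krt8, Krt5, Krt17, Krt6a and all other keratins in the summed keratin FPKM (y axis, percent) of each of the 6 libraries (x axis). Krt18 and Krt8 fill most of every bar, and the share of Krt17 is 11.8 to 15.4% in the 3 Jmjd6-/- libraries against 7.25 to 10.6% in the 3 WT libraries.

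The simple-epithelial pair was the most abundant. Krt18 stood at 3767 FPKM in unstimulated WT stroma, 2339 and 3568 FPKM in WT stroma with RANKL, 3602 FPKM in unstimulated Jmjd6-/- stroma, and 3119 and 3194 FPKM in Jmjd6-/- stroma with RANKL. Krt8, its type II partner, was at 2520, 1817, 2482, 2359, 2396 and 2408 FPKM in the same order. The WT replicates spanned the Jmjd6-/- replicates for both genes, so the stimulated genotypes overlapped. The ratio of Krt8 to Krt18 lay between 0.655 and 0.777 in all 6 libraries.

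Among the other simple-epithelial keratins, Krt19, a type I keratin without the usual tail domain, was at 21.8, 14.3 and 22.8 FPKM in the WT libraries, given here and below as unstimulated, RANKL replicate 1 and RANKL replicate 2. Its Jmjd6-/- values, in the same order, were 46.0, 31.3 and 40.2 FPKM. Each Jmjd6-/- library lay above each WT library. Krt7, a type II keratin of ducts and glands, was at 6.06, 10.04 and 17.1 FPKM in WT and 9.02, 10.7 and 10.7 FPKM in Jmjd6-/- stroma. Its stimulated groups overlapped.

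Krt20, a type I keratin of the gut lining, had the lowest mean of the simple-epithelial keratins and the widest range. It was at 0.0172 FPKM in unstimulated WT stroma and at 3.99 and 4.22 FPKM with RANKL. In Jmjd6-/- stroma it was at 0.372 FPKM without RANKL and 1.53 and 1.67 FPKM with it. The genotypes were thus ordered one way before stimulation and the other way after it. Krt20 in unstimulated WT stroma rested on 1 estimated fragment, and the ratio to its stimulated level was 239.5 (95% interval 40.5 to 9001, for counting error only).

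Basal keratins were present in very unequal amounts. Krt5 was at 1548, 1006 and 1471 FPKM in the WT libraries and at 1977, 1887 and 1879 FPKM in the Jmjd6-/- libraries, with no overlap of the genotypes. Krt14, the type I partner of Krt5 in skin, was at only 2.98, 15.4 and 23.5 FPKM in WT and 7.67, 37.2 and 41.8 FPKM in Jmjd6-/- stroma. The level of Krt5 was therefore 520.1 times that of Krt14 in unstimulated WT stroma and 258 times in unstimulated Jmjd6-/- stroma, and 44.9 to 65.5 times in the stimulated libraries. Krt15, another type I keratin of basal cells, was at 2.96, 3.65 and 5.20 FPKM in WT and 9.18, 5.82 and 8.35 FPKM in Jmjd6-/- stroma.

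Keratins of activated epidermis had higher values in Jmjd6-/- stroma in both states. Krt17 was at 619, 522 and 911 FPKM in WT and 1099, 1382 and 1443 FPKM in Jmjd6-/- stroma. Krt6a, a type II keratin of wounded epidermis, was at 41.9, 18.6 and 36.5 FPKM in WT and 143, 162 and 179.9 FPKM in Jmjd6-/- stroma. Krt6b, its close relative, was at 2.14, 1.28 and 4.37 FPKM in WT and 16.4, 39.8 and 43.0 FPKM in Jmjd6-/- stroma. In these 3 genes the lowest Jmjd6-/- library was above the highest WT library. Krt16, a type I partner of the Krt6 keratins, was at 2.05, 4.68 and 16.1 FPKM in WT and 11.7, 51.5 and 62.3 FPKM in Jmjd6-/- stroma, where the unstimulated Jmjd6-/- library fell below the second WT replicate.

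The suprabasal keratins were low, with Krt79 the highest. This type II keratin of the hair canal and sebaceous duct was at 0.502, 4.99 and 12.8 FPKM in WT and 1.25, 23.4 and 26.1 FPKM in Jmjd6-/- stroma. Krt80, a type II keratin of differentiating epithelia, was at 1.49, 1.49 and 1.72 FPKM in WT and 6.30, 6.63 and 6.54 FPKM in Jmjd6-/- stroma. The 3 values of each genotype lay close together and far from those of the other. The epidermal pair was uneven, Krt10 lying between 2.08 and 4.19 FPKM and Krt1 between 0.311 and 1.49 FPKM.

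Further suprabasal keratins with a mean of at least 1 FPKM were Krt77, Krt78 and Krt13. Krt77, a type II keratin of the sweat duct, was at 0.186, 0.716 and 2.22 FPKM in WT and 0.164, 4.99 and 4.54 FPKM in Jmjd6-/- stroma. Krt78 was at 0.368, 0.535 and 1.66 FPKM in WT and 1.42, 2.69 and 3.06 FPKM in Jmjd6-/- stroma. Krt13, a type I keratin of oral and oesophageal lining, was at 0.355, 0.422 and 0.803 FPKM in WT and 2.67, 2.52 and 2.49 FPKM in Jmjd6-/- stroma. Of these, Krt13 kept its 3 Jmjd6-/- values within a narrow band above all WT values. Krt76, of the palate, reached 0.890 and 1.22 FPKM in stimulated WT stroma and 1.63 and 1.27 FPKM in stimulated Jmjd6-/- stroma, and was at 0.101 and 0.0331 FPKM without RANKL. Krt9, of palm and sole skin, was at 0.0314, 0.911 and 1.56 FPKM in WT and 0.0432, 1.10 and 0.623 FPKM in Jmjd6-/- stroma.

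Hair keratins were below 1 FPKM without RANKL, with Krt72 as the exception. Krt72, a type II keratin of the inner root sheath, was at 4.18 FPKM in unstimulated WT stroma and 0.443 and 0.671 FPKM with RANKL. In Jmjd6-/- stroma it was at 5.20 FPKM without and 3.20 and 2.65 FPKM with RANKL. Its stimulated WT libraries were thus the low ones. The joint entry of Krt81, Krt83 and Krt85, type II keratins of the hair cortex, was listed at 0 in both unstimulated libraries, at 2.55 and 3.03 FPKM in WT and at 0.651 and 0.399 FPKM in Jmjd6-/- stroma with RANKL. Krt84 was at 0.0308, 0.546 and 0.926 FPKM in WT and 0.0304, 0.378 and 0.319 FPKM in Jmjd6-/- stroma. Krt71, of the inner root sheath, was at 0.0185, 0.771 and 0.557 FPKM in WT and 0.0361, 0.406 and 0.350 FPKM in Jmjd6-/- stroma.

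Of the unclassified keratins, Krt23, a type I keratin of glandular epithelia, was at 1.89, 1.87 and 4.30 FPKM in WT and 9.36, 10.9 and 11.1 FPKM in Jmjd6-/- stroma. Krt222, a divergent type I relative, was at 0.194, 0.802 and 1.16 FPKM in WT and 0.265, 1.71 and 1.32 FPKM in Jmjd6-/- stroma. The tested keratins not yet named (Krt2, Krt4, Krt12, Krt25, Krt33b, Krt36, Krt42, Krt74, Krt75 and Krt86) had means from 0.1001 to 0.780 FPKM.

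**Figure D2:**
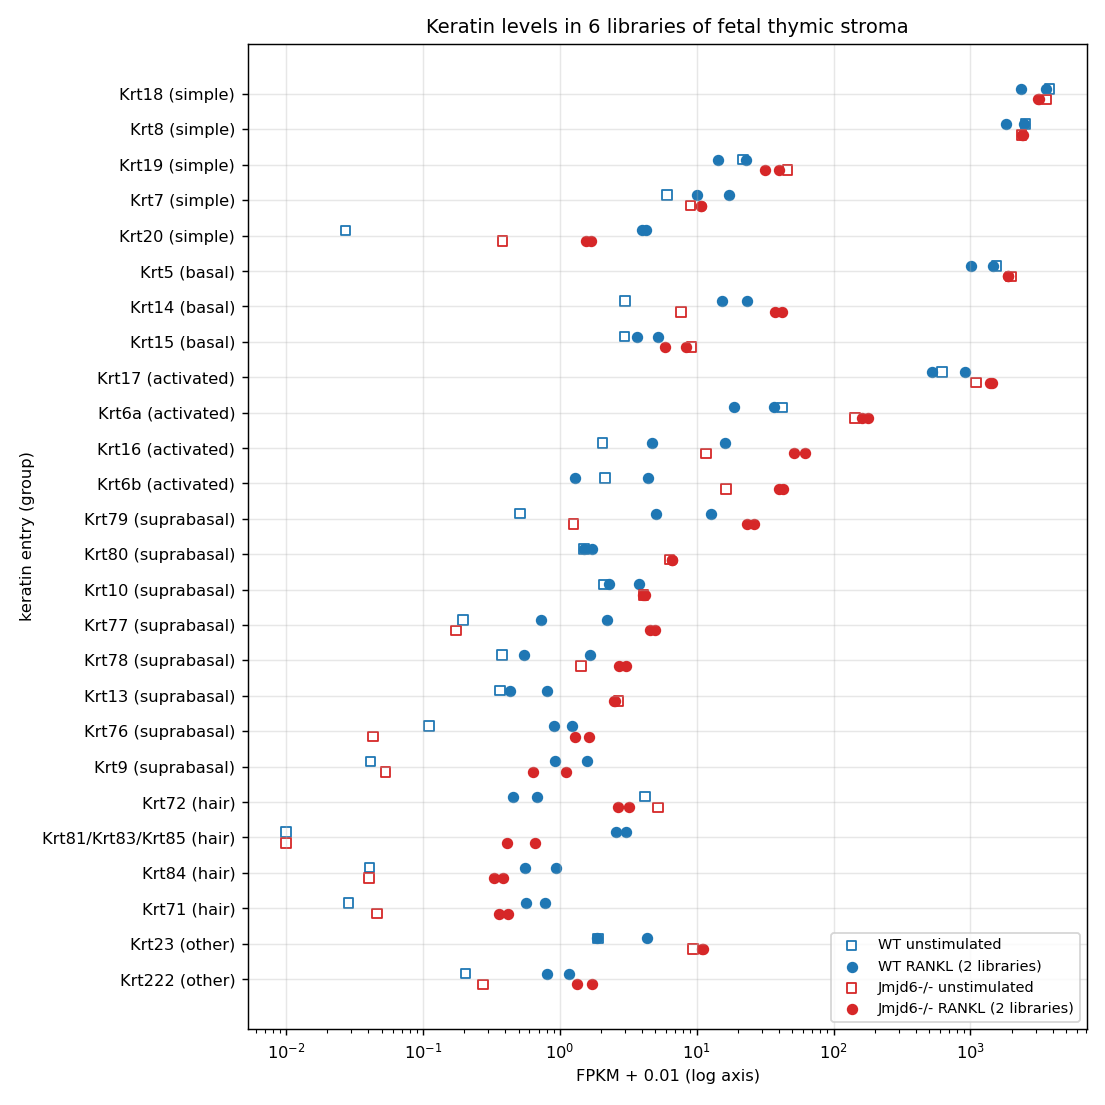
Level of each keratin with a mean of at least 1 FPKM or past the threshold in a test (y axis, with its group) as FPKM with 0.01 added on a log axis (x axis). Squares are the unstimulated libraries, filled circles the RANKL libraries, blue WT and red Jmjd6-/-. The entry of Krt81, Krt83 and Krt85 is at 0 in both unstimulated libraries, and Krt6a, Krt6b, Krt13 and Krt80 show 3 red symbols to the right of 3 blue ones.

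RANKL raised a number of keratins of suprabasal and hair epithelia and Krt14, while the abundant Krt8, Krt18 and Krt5 did not pass the test. This comparison asked how the stromal keratins respond to the RANK signal and set 4 RANKL libraries against 2 unstimulated libraries, with genotype as a term, in limma on log2 FPKM with 0.1 added. Of 37 tested keratins 11 rose and 1 fell at an adjusted p under 0.05, where 10.5% of the 15894 tested genes rose and 4.11% fell. The median log2 change was 0.61 over the tested keratins and -0.02 over all tested genes. By group, 4 of 12 tested suprabasal, 2 of 5 hair cortex, 1 of 5 inner root sheath, 1 of 4 activated, 1 of 3 basal, 1 of 5 simple-epithelial and 1 of 3 unclassified keratins rose.

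Krt79 rose most, by a log2 change of 3.97 (SE 0.35, limma adjusted p = 0.000776). In the other suprabasal keratins the log2 change was 3.23 for Krt77 (SE 0.55, adjusted p = 0.0107), 3.02 for Krt76 (SE 0.32, adjusted p = 0.00171) and 3.00 for Krt9 (SE 0.36, adjusted p = 0.00262). Krt14, the basal type I keratin, rose by 2.49 (SE 0.18) with the smallest adjusted p of the family, 0.000357. Krt16 rose by 2.15 (SE 0.43, adjusted p = 0.0205), whereas its activated relatives Krt17 (0.26, adjusted p = 0.468), Krt6b (0.74, adjusted p = 0.343) and Krt6a (-0.21, adjusted p = 0.674) did not pass. Krt20 rose by 3.51 (SE 0.67, adjusted p = 0.0163) and Krt222 by 2.00 (SE 0.25, adjusted p = 0.00360). All unstimulated values of the 11 rising keratins lay below all stimulated values of the same genotype. The 11 were picked by the test on these same libraries, so this order adds no support to it.

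The hair keratins that rose did so from almost nothing. For the entry of Krt81, Krt83 and Krt85 the log2 change was 3.73 (SE 0.51, adjusted p = 0.00478). Against the level that 3 fragments would give in the unstimulated library, its stimulated mean was at least 49.5-fold higher in WT and at least 4.62-fold higher in Jmjd6-/- stroma. The log2 change was 2.24 for Krt71 (SE 0.33, adjusted p = 0.00610) and 2.21 for Krt84 (SE 0.35, adjusted p = 0.00843). In WT stroma the ratio of stimulated to unstimulated FPKM was 35.9 for Krt71 (95% interval 7.63 to 1771), with 1 fragment in the unstimulated library, and 23.9 for Krt84 (95% interval 6.95 to 219), with 2 fragments there. Krt9 in WT stroma, also with 2 fragments, had a ratio of 39.4 (95% interval 11.9 to 366).

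Krt72 was the keratin that fell, by 1.77 on the log2 scale (SE 0.42, adjusted p = 0.0365). The fall was lost without the unstimulated WT library, without WT RANKL replicate 2 and without either Jmjd6-/- RANKL replicate, the adjusted p over all alternatives running from 0.00825 to 0.318. Krt16 lost its call without either Jmjd6-/- RANKL replicate or either unstimulated library, Krt71 and Krt84 without the unstimulated WT library, and Krt77 without the unstimulated Jmjd6-/- library.

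The abundant keratins did not pass the test. The log2 change with RANKL was -0.29 for Krt18 (SE 0.19, adjusted p = 0.367), -0.11 for Krt8 (SE 0.16, adjusted p = 0.691) and -0.21 for Krt5 (SE 0.18, adjusted p = 0.469). The summed keratin FPKM was 8547 and 9316 without RANKL and 5779, 8605, 9192 and 9382 with it, so the stimulated libraries lay on both sides of the unstimulated ones (two-sided exact permutation test of 4 against 2 libraries, p = 0.800). The smallest p this test can give is 0.0667, so it could not have called a difference. The suprabasal sum, at 6.90 and 18.1 FPKM without RANKL, was 14.0, 28.9, 49.1 and 51.8 FPKM with it (exact p = 0.200). The hair cortex sum was 0.414 and 1.17 FPKM without and 3.64, 5.35, 1.60 and 1.58 FPKM with RANKL (exact p = 0.133).

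Markers of the stromal cell types also moved with RANKL, where 10.5% of all tested genes rose and 4.11% fell. Of 12 thymic epithelial genes, 4 rose (Aire, Cd80, Tnfrsf11a and Cldn4) and 2 of the cortical epithelium fell, Ly75 by 0.69 (adjusted p = 0.0287) and Prss16 by 0.59 (adjusted p = 0.0352) on the log2 scale. Of 5 endothelial genes 3 fell, Cdh5 (-1.15), Pecam1 (-0.92) and Kdr (-0.87), and the sum of the 5 was 22.4 FPKM in WT and 8.31 FPKM in Jmjd6-/- stroma without RANKL and 4.10 to 12.5 FPKM with it. Among 5 macrophage genes Mrc1 rose and Csf1r and Emr1 fell, and among 9 mesenchymal genes Dcn rose by 1.01. None of the 4 tested mast cell genes passed, and Lck was the 1 T cell gene tested, which rose by 1.12. The part of the cell make-up in the keratin response was not tested.

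**Figure D3:**
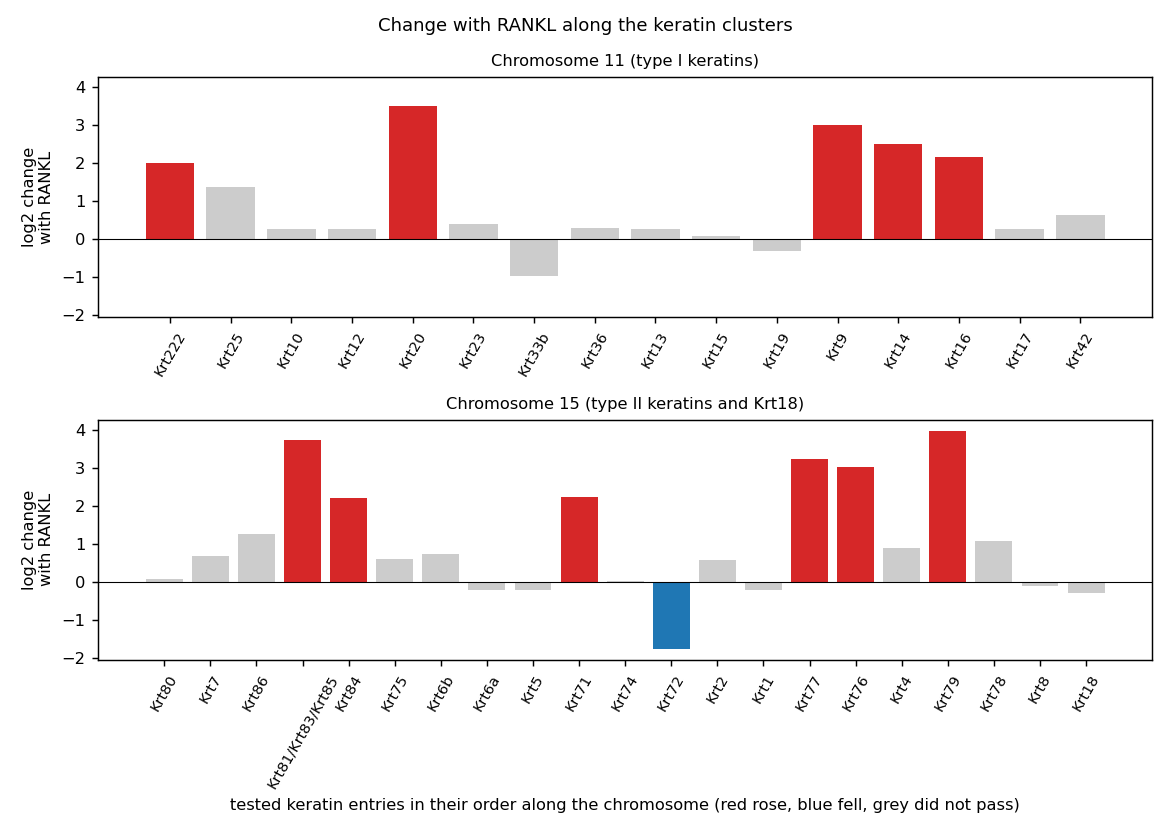
Log2 change with RANKL (y axis, FPKM with 0.1 added, 4 against 2 libraries) of the 37 tested keratins in their order along chromosomes 11 and 15 (x axis, rank only). Red bars rose, the blue bar fell and grey bars did not pass the threshold. Krt71 and Krt72, with opposite bars, stand on either side of Krt74, and Krt14 and Krt16, with red bars, stand beside Krt17, with a log2 change of 0.26.

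Keratins that rose lay both beside one another and beside keratins that did not pass the test. On chromosome 11 the rising Krt9, Krt14 and Krt16 are followed by Krt17, at a log2 change of 0.26, and by Krt42, at 0.63. Krt15 and Krt19 on the other side were at 0.08 and -0.32. On chromosome 15, Krt71 rose and Krt72 fell with Krt74 (0.01) between them, while Krt77 and Krt76, next to each other, both rose, as did Krt84 and the joint entry of Krt81, Krt83 and Krt85 beside it. Agreement between neighbours was not tested.

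The response to RANKL in each genotype was then set side by side. The unstimulated stroma had 1 library per genotype, which the interaction term assumes to vary like the stimulated ones. No keratin and no gene passed an adjusted p of 0.05 for a difference in the response (0% of 15894 genes in either direction). At an unadjusted p under 0.05 the response was higher in Jmjd6-/- stroma for 1 keratin and lower for 3, where 0.742% and 3.44% of all tested genes did so. Krt20 had a log2 change of 5.17 in WT and 1.85 in Jmjd6-/- stroma, a difference of -3.31 (SE 0.39, unadjusted p = 0.000245, adjusted p = 0.703 by limma). The fall of Krt72 was 2.72 in WT and 0.82 in Jmjd6-/- stroma on the log2 scale, and the entry of Krt81, Krt83 and Krt85 changed by 4.85 and 2.61. These differences of 1.91 (adjusted p = 0.779) and -2.23 (adjusted p = 0.838) were not called.

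**Figure D4:**
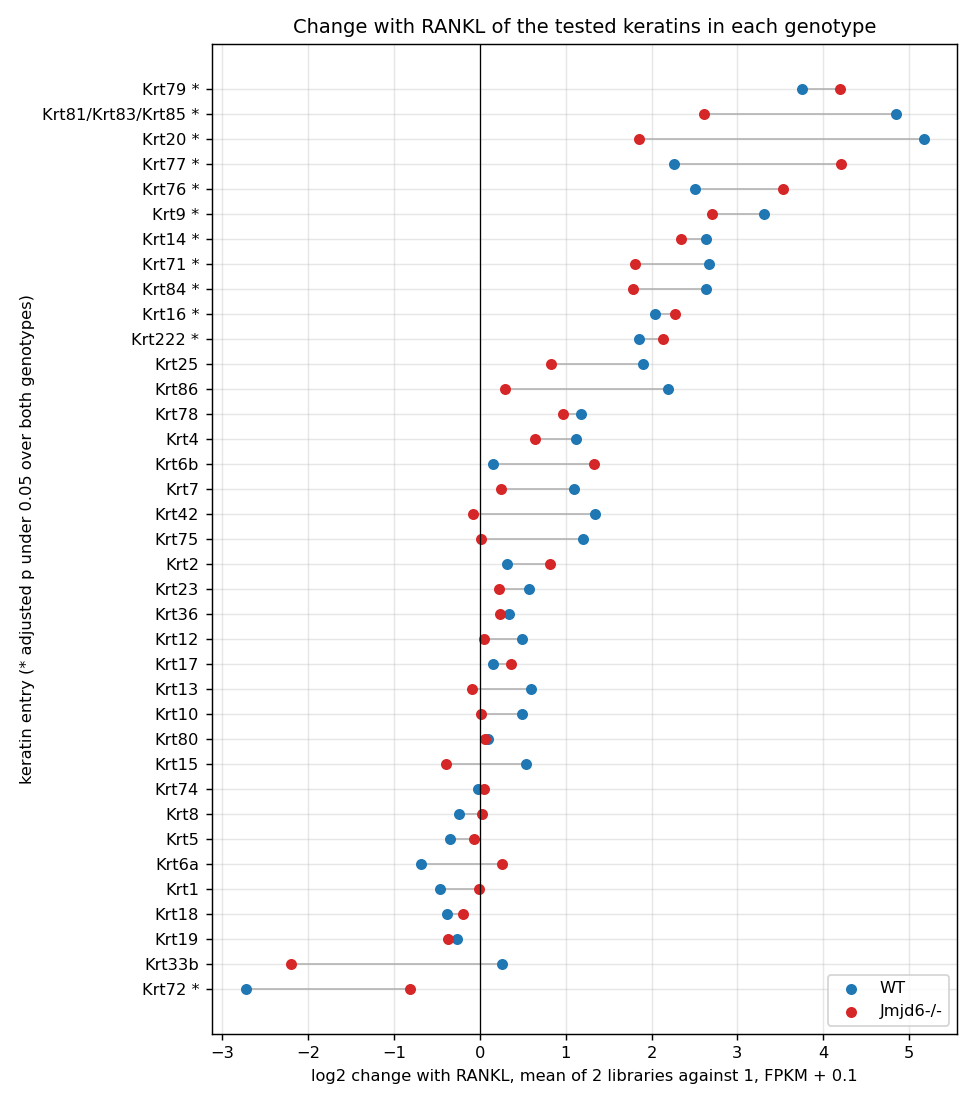
Log2 change with RANKL (x axis, mean of 2 stimulated libraries against 1 unstimulated library, FPKM with 0.1 added) of the 37 tested keratins (y axis) in WT (blue) and Jmjd6-/- (red) stroma, with a star for an adjusted p under 0.05 over both genotypes. Krt79, Krt14 and Krt16 have the points of both genotypes close together, and Krt20 has them far apart, at 5.17 and 1.85.

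Under RANKL, Jmjd6-/- stroma held more of the activated keratins Krt6a and Krt6b and of Krt80 and Krt72, and less of the joint hair cortex entry. This comparison asked which stromal keratins depend on the genotype once RANKL is given, 2 libraries against 2. At an adjusted p under 0.05, 4 of 37 tested keratins were higher and 1 was lower in Jmjd6-/- stroma, where 0.516% of all tested genes were higher and 1.82% lower. The median log2 ratio was 0.62 over the tested keratins and 0.01 over all tested genes. At an unadjusted p under 0.05, 16 keratins were higher and 5 lower, against 6.52% and 12.3% of all tested genes.

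Krt6b (XLOC_007146, chromosome 15, 101676023 to 101680289 on the minus strand) had the largest ratio of the family, with 2.82 ± 2.18 FPKM in WT and 41.4 ± 2.23 FPKM in Jmjd6-/- stroma (SD, n = 2 each). Its log2 ratio was 4.06 (SE 0.53, adjusted p = 0.0340 by limma). Krt6a (XLOC_007147, 101689928 to 101694305, beside Krt6b on the same strand) was at 27.6 ± 12.6 and 171 ± 12.6 FPKM, a log2 ratio of 2.71 (SE 0.31, adjusted p = 0.0280). The level of Krt6a over that of Krt6b went from 8.35 to 19.6 over the WT libraries and from 4.07 to 8.71 over the Jmjd6-/- libraries. Of the 101-base stretches of the Krt6b transcript 29.9% also occur in Krt6a, so reads from these parts were divided between them by the authors' multi-read correction.

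Krt80 (XLOC_007137, 101349571 to 101370125, minus strand) was at 1.61 ± 0.162 FPKM in WT and 6.59 ± 0.0587 FPKM in Jmjd6-/- stroma. Its log2 ratio was 1.97 (SE 0.18, adjusted p = 0.0279). Krt72 (XLOC_007151, 101776560 to 101786458, minus strand) was at 0.557 ± 0.161 and 2.92 ± 0.392 FPKM, a log2 ratio of 2.22 (SE 0.26, adjusted p = 0.0282). The entry of Krt81, Krt83 and Krt85 (XLOC_007138, 101431014 to 101491512, minus strand) was at 2.79 ± 0.336 and 0.525 ± 0.178 FPKM, a log2 ratio of -2.23 (SE 0.33, adjusted p = 0.0406). Krt86, which lies on the other strand of the same interval and shares 24.2% of the 101-base stretches of Krt81, was at 0.218 and 0.556 FPKM in WT and 0.0858 and 0.0781 FPKM in Jmjd6-/- stroma. Without either Jmjd6-/- RANKL replicate, Krt6a and Krt6b were the 2 keratins called, where 0.208% and 0.126% of all tested genes were higher, and Krt72, Krt80 and the hair entry were not. Without WT RANKL replicate 1, 11 keratins were higher and 5 lower, but 14.2% and 10.9% of all tested genes were then called too. Without replicate 2, 13 were higher and 0 lower, against 1.31% and 0.937% of all genes. When genes of low FPKM were kept in the fit, 0 of these 5 entries were called, and 0.00444% of all genes were called in each direction. The limma adjusted p was then 0.204 for Krt6a and 0.218 for Krt6b.

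Several keratins with large ratios missed the threshold. Krt16 had a log2 ratio of 2.69 (SE 0.55, adjusted p = 0.0750), Krt13 of 1.92 (SE 0.32, adjusted p = 0.0530) and Krt23 of 1.91 (SE 0.38, adjusted p = 0.0706). For Krt14 the log2 ratio was 1.05 (adjusted p = 0.0792) and for Krt20 -1.30 (adjusted p = 0.0561). The ratios were smaller for Krt17 (1.03, adjusted p = 0.128), Krt19 (0.97, adjusted p = 0.121) and Krt5 (0.63), and near 0 for Krt18 (0.13, adjusted p = 0.839) and Krt8. In the activated group all 4 keratins had both Jmjd6-/- RANKL libraries above both WT RANKL libraries, as did 3 of 3 basal and 9 of 12 tested suprabasal keratins. Of the 5 tested hair cortex keratins 4 had both below. In all, 22 of 37 tested keratins lay above without overlap and 9 below, where 24.5% and 26.2% of all tested genes did so.

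The WT RANKL replicates differed from each other in one direction. Replicate 2 was above replicate 1 in 36 of 37 tested keratins, by a median ratio of 1.66, where the median ratio of all tested genes was 0.97. In Jmjd6-/- stroma replicate 2 was above in 20 of 37, by a median ratio of 1.02. The WT replicates also differed with the GC content of transcripts, the median log2 ratio of replicate 2 to 1 being -0.40 in the lowest decile of GC content and 0.27 in the highest decile, and 0.67 in keratins, whose median GC content was 55.0% against 50.3% for all genes. The part of GC content in the keratin values was not tested. This spread enters every genotype comparison above, and the sum over the 50 keratins, at 7192 ± 1998 FPKM in WT and 9287 ± 135 FPKM in Jmjd6-/- stroma (SD, n = 2 each), had both Jmjd6-/- libraries (9192 and 9382 FPKM) above both WT libraries (5779 and 8605 FPKM). An exact permutation test of 2 against 2 libraries gave p = 0.333, the smallest it can give, so it cannot call a difference.

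Sums by group are given for the stimulated stroma as values, since 2 against 2 libraries cannot pass an exact test. The activated keratins summed to 758 ± 298 FPKM in WT and 1682 ± 65.9 FPKM in Jmjd6-/- stroma with RANKL, 2.22 times as much. Krt17, which was not called, gave 717 and 1413 FPKM of these sums. Suprabasal keratins summed to 21.4 ± 10.5 and 50.5 ± 1.96 FPKM, basal keratins to 1263 ± 336 and 1929 ± 0.350 FPKM, and hair cortex keratins to 4.49 ± 1.21 and 1.59 ± 0.0185 FPKM. Inner root sheath and companion layer keratins summed to 2.52 ± 0.409 and 4.66 ± 0.564 FPKM, and the unclassified keratins summed to 4.39 ± 2.15 and 12.7 ± 0.101 FPKM. The simple-epithelial sum was 5139 ± 1350 and 5607 ± 67.8 FPKM. Its share of the keratin FPKM was 70.8 to 73.9% in the WT libraries and 60.3 to 64.6% in the Jmjd6-/- libraries.

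The same genotype ratio could be read in the unstimulated libraries, which share no sample with the stimulated ones but hold 1 library each and allow no test. Of the 37 tested keratins 14 were more than 2-fold higher in Jmjd6-/- stroma and 0 more than 2-fold lower, where 2.99% and 3.45% of all tested genes were. The fold was 7.70 for Krt6b, 7.52 for Krt13, 5.70 for Krt16, 4.96 for Krt23, 4.22 for Krt80 and 3.41 for Krt6a. Krt72, at a fold of 1.25, differed little before RANKL, and Krt20 was higher in Jmjd6-/- stroma in this state. Of the 22 keratins that were higher without overlap under RANKL, 20 were also higher unstimulated, against 79.8% among all tested genes. Of the 9 that were lower without overlap under RANKL, 2 (Krt12 and Krt84) were also lower unstimulated, against 72.7% among all tested genes. Krt25 and the entry of Krt81, Krt83 and Krt85 were listed at 0 in both unstimulated libraries. Krt42, Krt71, Krt84 and Krt86 rested on 0 to 3.8 estimated fragments there. The genotypes could not be ordered for any of these low entries. Krt33b was higher in unstimulated Jmjd6-/- stroma, at 0.360 against 0.0522 FPKM, on 8 and 2.3 estimated fragments. Across the 37 keratins the log2 ratios in the 2 states had a Pearson r of 0.58 and a Spearman rho of 0.54, and across all tested genes the Pearson r was 0.47. Genes are not independent replicates, and all keratins share the libraries.

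**Figure D5:**
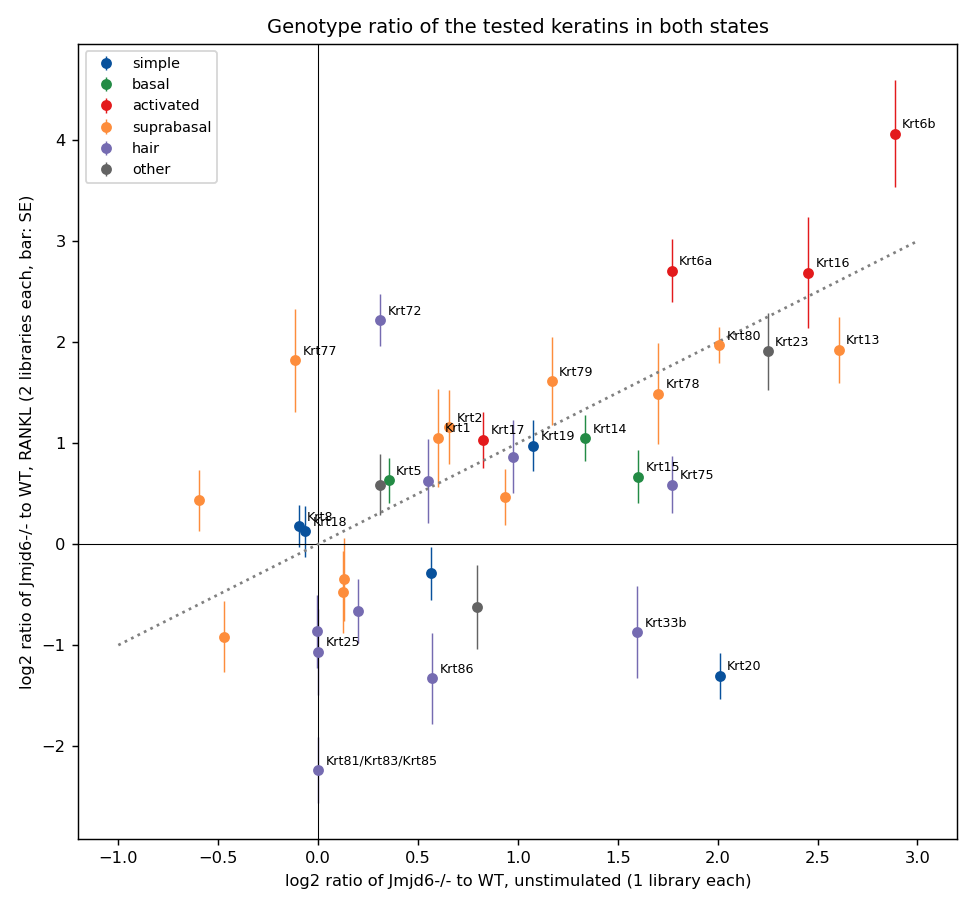
Log2 ratio of Jmjd6-/- to WT of the 37 tested keratins in unstimulated stroma (x axis, 1 library each) and with RANKL (y axis, 2 libraries each, bars are the SE), on FPKM with 0.1 added, coloured by group. The dotted line marks equal ratios. Krt6b, Krt16, Krt6a, Krt80, Krt23 and Krt13 lie at the upper right, and Krt20 at 2.01 on the x axis and -1.30 on the y axis.

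With both states in 1 model, 3 libraries against 3 and RANKL as a term, 9 keratins were higher in Jmjd6-/- stroma and none lower at an adjusted p under 0.05, where 2.05% and 3.38% of all tested genes were. At an unadjusted p under 0.05, 19 were higher and 2 were lower, Krt12 and the joint hair cortex entry, against 9.21% and 12.8% of all tested genes. This comparison was added after the data were seen. The 9 were Krt80 (log2 ratio 1.98, adjusted p = 0.00342 by limma), Krt6a (2.39), Krt6b (3.67), Krt13 (2.15), Krt23 (2.02), Krt14 (1.15), Krt16 (2.61), Krt19 (1.01) and Krt17 (0.96). Of the 37 keratins 14 had all 3 Jmjd6-/- libraries above all 3 WT libraries and 1 had them below, where 9.14% of all tested genes did so in either direction. The first step of the study's selection was a ratio above 3 between the highest and the lowest of the 6 values with 0.1 added. By this step 29 of the 50 keratins passed, or 58.0%, against 14.3% of all 22513 entries. The study's further step, which kept genes associated with RANKL or with Jmjd6, was not applied.

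Markers of other stromal cells moved with genotype beside these results. Under RANKL 0.516% of all tested genes passed the test as higher in Jmjd6-/- stroma and 1.82% as lower. The summed FPKM of 9 mesenchymal genes in stimulated stroma was 658 and 726 (WT) against 412 and 427 (Jmjd6-/-), and without RANKL it was 679 against 321. All 9 had a negative log2 ratio under RANKL and 2 passed the test, Col3a1 (-0.999, adjusted p = 0.0280) and Col1a2 (-0.80, adjusted p = 0.0350). The sum of 5 endothelial genes was 12.3 and 12.5 FPKM in WT and 4.10 and 4.62 FPKM in Jmjd6-/- stroma with RANKL, and 2 of them (Pecam1 and Cdh5) passed. The sum of 5 mast cell genes was 6.03 and 8.23 FPKM in WT and 3.90 and 4.90 FPKM in Jmjd6-/- stroma. Of these genes Cma1 and Mcpt4 passed, and Cma1 was listed at 0 in the 3 Jmjd6-/- libraries. Kit made up most of each sum and did not differ, with a log2 ratio of -0.0062. It was at 4.55 and 4.11 FPKM in WT and 4.86 and 3.81 FPKM in Jmjd6-/- stroma. The sum of 12 thymic epithelial genes was 5173 and 6117 FPKM in WT and 6186 and 6208 FPKM in Jmjd6-/- stroma, and none of the 12 passed the test. Macrophage genes summed to 415 and 424 FPKM and to 346 and 391 FPKM. The part of the cell make-up in the keratin differences was not tested.

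Desmosomes are the junctions that anchor keratin filaments between cells, and their genes had a higher sum in Jmjd6-/- stroma. The 17 desmosomal genes summed to 799 and 816 FPKM in WT and 1391 and 1408 FPKM in Jmjd6-/- stroma with RANKL, and to 1050 and 1585 FPKM without. Of 16 tested, 2 were higher in Jmjd6-/- stroma and none lower, against 0.516% and 1.82% of all tested genes. The median log2 ratio was 0.46, and 11 of the 16 ratios were positive. The largest part of the sum in every library came from Perp. Perp, a membrane protein of desmosomes, was at 291 and 313 FPKM in WT and 682 and 692 FPKM in Jmjd6-/- stroma (log2 ratio 1.19, adjusted p = 0.0280), and Pkp1, a plaque protein, had a log2 ratio of 1.27 (adjusted p = 0.0493). Dsp, the plaque protein that binds keratin filaments, had a log2 ratio of 0.65 (adjusted p = 0.0538). With RANKL 3 of the 16 rose and 2 fell, where 10.5% and 4.11% of all tested genes did so. The desmosomal cadherins Dsg1b (2.86), Dsg1a (2.78) and Dsg4 (2.22) rose, and Dsp (-0.46) and Ppl (-0.74) fell on the log2 scale.

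Hemidesmosomes anchor keratins to the basement membrane. Of their 6 genes 3 rose with RANKL, Col17a1 by 1.91 (adjusted p = 0.0145), Itgb4 by 0.76 (adjusted p = 0.00557) and Plec by 0.48 (adjusted p = 0.0382) on the log2 scale, where 10.5% of all tested genes rose. None passed between genotypes. The most abundant were Cd151, at 72.1 to 87.8 FPKM, and Dst, at 13.5 to 28.5 FPKM.

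Among 19 transcription factors of epithelial differentiation, 2 rose and 2 fell with RANKL, a share of rises close to the 10.5% of all tested genes. Over all tested genes 4.11% fell. None passed between genotypes, where 17 of 19 log2 ratios were positive, with a median of 0.26, against 8236 of 15894 over all tested genes. Tfap2c rose by 1.54 (adjusted p = 0.000669) and Grhl1 by 0.55 (adjusted p = 0.0479), whereas Grhl3 fell by 0.84 (adjusted p = 0.00568) and Zfp750 by 0.48 (adjusted p = 0.0148) on the log2 scale. The most abundant, Foxn1, the master regulator of thymic epithelium, and Trp63, of basal epithelial cells, were at 80.8 to 117 and 68.6 to 108 FPKM and did not pass in either comparison.

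Of 10 other cytoplasmic intermediate filament genes, Prph rose by 2.29 (adjusted p = 0.00905) and Vim, the filament of mesenchymal cells, by 0.89 (adjusted p = 0.00843) on the log2 scale with RANKL. Over all tested genes 10.5% rose. None passed between genotypes. Vim was at 109.8 FPKM in unstimulated WT, 156 and 209 FPKM in WT with RANKL, 63.3 FPKM in unstimulated Jmjd6-/- and 134 and 132 FPKM in Jmjd6-/- stroma with RANKL, with a log2 ratio of -0.44 between the stimulated genotypes (adjusted p = 0.238). Nefm, a neurofilament, ranged from 23.3 to 74.4 FPKM.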

How the data were processed

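Poly-A RNA of 2-DG-treated (1.35 mM, 4 days) fetal thymic lobes (E15.5) was sequenced by the authors as 101-bp paired reads. Per the labels and the study's methods, reads were mapped to mm10 with TopHat (2.0.10 in the submitters' processing notes) and FPKM were computed per gene with Cufflinks 2.1.1, correcting for multi-mapping reads and taking the library as stranded. The authors deposited FPKM, which were used without rescaling. No read counts were used here. Depth per library was estimated from the steps between FPKM values under 0.15, with 150 bp taken off the transcript length. A value of 0 was read as allowing 3 fragments, and such limits and intervals (exact binomial, 95%) cover counting error only. Groups came from the titles, since the treatment field gives RANKL for every sample.

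Log2 values with 0.1 added were fitted with limma 3.58.1 in R 4.3.3 over 15894 genes (mean FPKM of 0.1 or more). The fit used a mean-variance trend, two-sided tests and Benjamini-Hochberg adjustment over all of them. A log2 change on this scale understates the change of low genes. On simulated data of 15894 genes, 193 of 200 genes changed by 3 on the log2 scale, each with a mean of at least 1 FPKM, were recovered for RANKL and 183 of 200 for genotype. In all, 205 and 186 genes were called. Smaller changes, and changes in genes of lower FPKM, were not simulated. Alternatives were another added constant, another filter, no trend, other scalings, leaving out libraries and the replicate number as a block. Start regions and motifs were read from the RefSeq table (GRCm38.p6), and shared stretches from GENCODE transcripts. Coordinates are in mm10, counted from 1.

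The keratins, their groups, the partner and marker lists and the tests were chosen with earlier results of these data known. Keratins with a mean of at least 1 FPKM or past the threshold in a test were named with values, and from each partner list up to 4 genes per direction past the threshold and the 2 most abundant.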

Additional observations from a re-analysis of the deposited data

How the results depend on the processing

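The number of keratins rising with RANKL (11) became 6 without the filter on low values and 6 with a filter at a mean of 1 FPKM, where fewer keratins are tested, and the 1 that fell became 0 without the filter, without the trend, and without the unstimulated WT library. Over all genes 10.5% rose in the main fit, 3.5% without the filter and 10% with the filter at 1 FPKM. Leaving out 1 of the 4 RANKL libraries gave 10 to 14 rising and 0 to 1 falling keratins. In these fits 6.16 to 13.6% of all tested genes rose and 0.963 to 9.3% fell. Fewer keratins rose when an unstimulated library was left out. For genotype, shares of all genes without the filter, with a library left out and over both states are given with the results above. The keratins higher in Jmjd6-/- stroma under RANKL (4) became 0 without the filter, also with entries at 0 in every library left out, and 9 over both states, and 2 to 13 when 1 library was left out. The 1 lower keratin became 2 with 1 added to FPKM, without the trend or with the 4 RANKL libraries alone, and 0 with 0.01 added, without the filter (also with entries at 0 left out), with a mean of 1 FPKM and over both states, and 0 to 5 when 1 library was left out. The cause of these shifts was not tested. Without the filter 1 keratin, Krt31, was called for a higher response in Jmjd6-/- stroma. It was listed at 0 in every RANKL library. Without RANKL it was at 0.105 FPKM in WT and 0.0517 FPKM in Jmjd6-/- stroma, on 4.7 and 1.2 estimated fragments. The call thus stands for a smaller fall to 0. The 14 keratins more than 2-fold higher in unstimulated Jmjd6-/- stroma became 9 with 1 added, and ran from 9 to 18 over the alternatives. The 0 keratins more than 2-fold lower became 1 with 0.01 added. The 29 keratins past the 3-fold range became 12 with 1 added, and ran from 12 to 40. Other scalings left all calls in place except that Krt13 was added to the genotype calls with equal totals.

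With the replicate number as a block, 13 keratins were higher and 2 lower in Jmjd6-/- stroma under RANKL, where 2.40% and 6.78% of all tested genes were. The deviations of same-numbered libraries correlated at r = -0.078 across 12587 genes, and with 2 pairs the numbers were not taken to pair the libraries.

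Signs reversed in 10 cases, none past the threshold in the test given above. Leaving out 1 library at a time, unstimulated ones included, the log2 change with RANKL ran from -0.088 to 0.59 for Krt13, from -0.39 to 0.54 for Krt15, from -0.68 to 0.25 for Krt6a and from -0.25 to 0.026 for Krt8. The genotype ratio under RANKL ran from -0.67 to 0.091 for Krt7, from -0.18 to 0.43 for Krt18 and from -0.047 to 0.40 for Krt8. Comparisons that use an unstimulated group rest on 1 library, and keratins under about 0.1 FPKM were below what this depth can resolve.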
